A study of Mus musculus with 2 samples.

Results

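Among cultured mouse induced macrophages, 108 cells held high Hist1h4d, a gene for core histone H4, without high Hist1h1b and Hist1h2ae, which encode a linker histone H1 and a histone H2A. They were picked from 5207 cells with at least 5000 counts, at least 500 detected genes and at most 15% of counts from mitochondrial genes, and made up 2.07% of these cells (95% exact binomial interval 1.70 to 2.50). A cell was taken when Hist1h4d reached 200 CPM (counts scaled to 1000000 per cell) while the sum of Hist1h1b and Hist1h2ae stayed under 700 CPM. These Hist1h4d-high cells were set against 3350 Hist1h4d-low cells, with Hist1h4d under 50 CPM and the same 700 CPM ceiling. Another 750 cells lay between both Hist1h4d limits, and 408 cells had at least 200 CPM of Hist1h4d and at least 700 CPM of Hist1h1b and Hist1h2ae together (double-high cells).

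The cells are induced macrophages (iMac) of wild type genotype, obtained by reprogramming fibroblasts with c-Myc, a transcription factor of growth. They were detached with EDTA and put through DNBelab C4 droplet sequencing, which gave a cDNA library and an oligo library. The deposited matrix holds 6837 barcodes and 20034 genes, and no barcode is tied to either library, so barcodes shared between libraries could not be counted and all cells are 1 sample. Every difference below is therefore a description of this sample without a test, and its intervals cover counting error only.

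Replication-dependent histone genes are read mainly while a cell copies its DNA, so that new chromatin can be packed. They lie in clusters, where the nuclear protein NPAT gathers at histone locus bodies and switches them on at S phase entry. Most of their mRNAs end in a stem-loop bound by SLBP instead of a poly(A) tail, and they are degraded when DNA synthesis stops. Replication-independent variants such as H3f3a and H2afz come from separate genes with ordinary polyadenylated mRNAs and are made throughout the cycle. A level of a replication-dependent gene in a library primed on poly(A) can thus differ from its total mRNA, and the priming used here is not given in the sources used.

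In GRCm38, Hist1h4d is annotated by GENCODE M21 as a protein-coding gene of 1 exon at chr13:23581598-23582735 on the plus strand. The other genes of the rule lie on the minus strand of the same chromosome, Hist1h1b at chr13:21779883-21780625 and Hist1h2ae at chr13:23570517-23571220, each with 1 exon. Of the 50-base stretches in the Hist1h4d transcript, 10.2% also occur in the transcript of another gene. That share is 45.8% in Hist1h4h, 43.2% in Hist1h2ae and 0% in Hist1h1b, so levels of the near-identical copies are uncertain.

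The start regions of Hist1h4d, of 2 further H4 genes with counts in the same cells and of the H1 gene in the rule are shown because the rule sets an H4 gene against an H1 gene. Each sequence runs from 110 bases before the RefSeq start to 20 bases from it, 130 bases in all, on the gene's own strand of GRCm38.p6 as listed by RefSeq. Capitals mark the H4 element core GGTCCG, the CCAAT box (CCAAT, or ATTGG on the other strand) and the TATA box (TATAAA).
Hist1h4d, chr13:23581458-23581587, plus strand: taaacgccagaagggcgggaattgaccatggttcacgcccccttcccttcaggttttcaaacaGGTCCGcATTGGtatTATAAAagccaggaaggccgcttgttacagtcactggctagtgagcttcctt
Hist1h4h, chr13:23530934-23531063, plus strand: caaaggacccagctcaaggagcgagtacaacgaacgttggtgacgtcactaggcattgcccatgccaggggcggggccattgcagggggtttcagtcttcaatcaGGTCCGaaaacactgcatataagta
Hist1h4i, chr13:22041343-22041472, minus strand: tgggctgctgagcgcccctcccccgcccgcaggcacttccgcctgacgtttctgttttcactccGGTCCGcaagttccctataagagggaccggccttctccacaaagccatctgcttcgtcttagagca
Hist1h1b, chr13:21780606-21780735, minus strand: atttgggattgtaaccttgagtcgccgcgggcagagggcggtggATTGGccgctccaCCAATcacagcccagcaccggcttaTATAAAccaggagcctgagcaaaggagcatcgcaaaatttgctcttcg
Over windows of 250 bases before to 50 bases after the start, searched on both strands, GGTCCG occurred in 11 of 12 H4 windows and in 0 of 6 H1 windows, against 8.25% of 32851 windows of all genes. CCAAT occurred in 3 of 12 H4 windows and in 6 of 6 H1 windows, against 37.4% of all windows. TATAAA occurred in 8 of 12 H4 windows and in 4 of 6 H1 windows, against 13.6% of all. AAACACA, known as the H1 box, occurred in 5 of 6 H1 windows and in 0 of 12 H4 windows, against 7.18% of all. These matches describe the letters only, and 60 of the 66 replication-dependent histone genes with a row in the matrix had a window.

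By the rule, Hist1h4d ran between 200.1 and 1214 CPM in the 108 cells, with a median of 287 CPM. This rested on few counts, from 2 to 23 per cell with a median of 5, and 21 cells had exactly 2. Over the sum of all cells, Hist1h4d stood at 307 CPM in Hist1h4d-high cells, 7.34 CPM in Hist1h4d-low cells, 2786 of which had no count of it, and 406 CPM in double-high cells. The members nearest the lower limit had 200.1 and 200.6 CPM of Hist1h4d, and the nearest cell left out had 199.0 CPM. At the ceiling, the nearest member had 699.4 CPM of Hist1h1b and Hist1h2ae and the nearest cell above it had 709.1 CPM.

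The word low in the group's working name holds only against that ceiling. Hist1h1b and Hist1h2ae together had a median of 460.7 CPM in Hist1h4d-high cells, against 6.86 CPM in Hist1h4d-low cells and 1226 CPM in double-high cells. In 76 of the 108 cells the sum lay between 350 and 700 CPM, in 18 between 100 and 350 CPM and in 14 under 100 CPM, of which 11 had no count of either gene. Of all 516 cells with at least 200 CPM of Hist1h4d, 408 were above the ceiling.

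**Figure D1:**
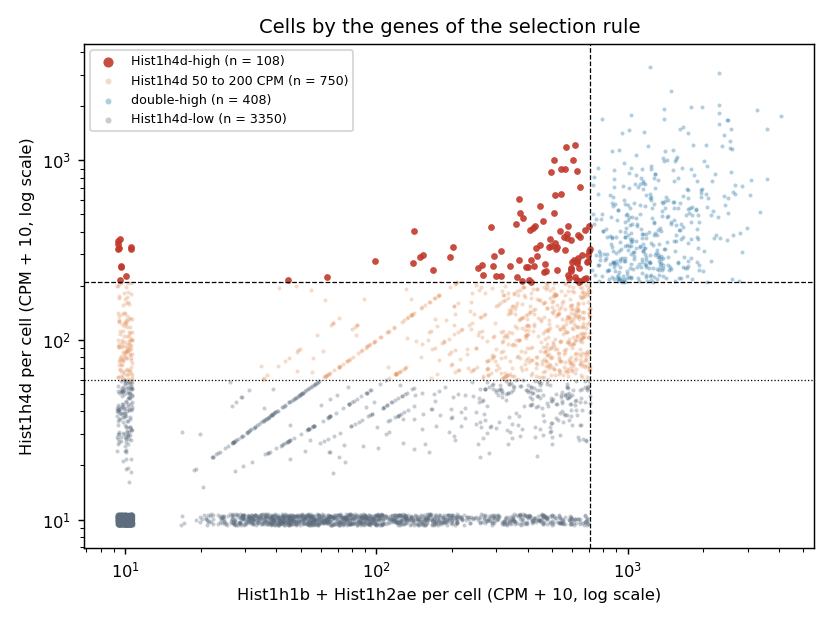
Each point is a cell, placed by its Hist1h1b and Hist1h2ae sum (x axis) and its Hist1h4d level (y axis), both in CPM plus 10 on log scales; values of 0 are spread around 10. The 108 Hist1h4d-high cells (red) fill the upper field left of the dashed 700 CPM ceiling, 76 of them at 350 CPM or more.

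The Hist1h4d-high cells were shallower, at a median depth of 14167 counts per cell and 2593 detected genes, against 24942 counts and 3948 genes in Hist1h4d-low cells. The median log2 ratio of Hist1h4d-high over Hist1h4d-low cells over 6656 genes at 10 CPM or more was -0.18, with 73.3% of genes below 0. Without histone, ribosomal protein, mitochondrial and ribosomal RNA locus genes in the denominator that median was -0.06. Transcripts tied to the ribosomal RNA locus took 9.34% of counts in Hist1h4d-high cells and 6.38% in Hist1h4d-low cells, ribosomal protein genes 33.7% and 31.8%, and mitochondrial genes a median of 0.419% and 0.617% per cell. The part of depth and of these shares in the results was not tested beyond the depth classes and the other depths, weights and denominator given below.

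The macrophage label held in the chosen cells. Each of the 20 macrophage genes was detected, led by Tyrobp, the adaptor of activating immune receptors, at 5958 CPM, against 5715 CPM in Hist1h4d-low cells, and by Lyz2, which encodes lysozyme, at 2672 CPM against 3716 CPM. Fibroblast genes summed to 4.45 CPM against 2.63 CPM, with 5 of 12 list members having a row and Pdgfra, Postn and Lox at 0 in Hist1h4d-high cells. Genes of T, B and NK cells summed to 7.12 CPM against 7.56 CPM, with 6 of 8 at 0, Cd3e, Cd79a and Ms4a1 among them, and endothelial and epithelial genes to 3.12 CPM against 6.77 CPM, with 6 of 9 at 0, Pecam1, Cdh5 and Epcam among them. Of the erythroid and megakaryocyte list, Pf4 alone reached 10 CPM, at 319 CPM against 265 CPM.

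All 5 families of replication-dependent histones were higher in Hist1h4d-high cells. Counted at 1.5-fold or more on the log2(CPM + 1) scale, 89 of 6656 genes were higher (1.34%) and 770 lower (11.6%), together 12.9%, whereas 19 of 20 histone genes that passed the 10 CPM minimum outside the rule were higher and none was lower. Of all listed histone genes, 66 had a row, and those under the minimum are summed with their family. The minimum was set over all kept cells, not over the chosen ones, and kept cells include those above the 700 CPM ceiling. A histone gene could thus pass the minimum through cells where it is high. Hist1h4h, for example, had 6.63 CPM in Hist1h4d-low cells and 138 CPM in double-high cells. Of the 3350 Hist1h4d-low cells, 1673 had no count of Hist1h1b or Hist1h2ae. The 19 of 20 therefore describes how the sets were chosen and is not a test.

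The H4 genes other than Hist1h4d summed to 208 CPM in Hist1h4d-high cells, 29.1 CPM in Hist1h4d-low cells and 321 CPM in double-high cells, a log2 ratio of high over low of 2.84 (95% interval 2.69 to 2.98). Per cell, the sum ran between 0 and 1977 CPM with a median of 172 CPM in Hist1h4d-high cells, and between 0 and 721 CPM with a median of 0 in Hist1h4d-low cells. The ranges overlapped, and 15 of the 108 chosen cells had no count of another H4 gene. Hist1h4h gave the largest part, with 84.1 CPM against 6.63 CPM, a 12.7-fold difference (10.7 to 14.9). Hist1h4c stood at 24.9 CPM against 2.40 CPM, Hist1h4k at 20.5 against 1.90 CPM and Hist1h4a at 17.8 against 1.60 CPM. Hist1h4i, the other H4 gene above the 10 CPM minimum beside Hist1h4h, differed less, with 22.7 CPM against 10.9 CPM or 2.08-fold (1.54 to 2.75).

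The H3 genes, whose product pairs with H4 in the nucleosome core, summed to 250 CPM in Hist1h4d-high cells against 30.6 CPM in Hist1h4d-low cells, a log2 ratio of 3.03 (2.90 to 3.16). Hist1h3c made up most of this, at 165 CPM against 16.9 CPM, or 9.74-fold (8.69 to 10.9). The H2A genes without Hist1h2ae summed to 507 CPM against 79.6 CPM, a log2 ratio of 2.67 (2.58 to 2.76), and all 10 above the minimum were higher. Among them Hist1h2ab stood at 110 CPM against 12.7 CPM, and Hist3h2a, outside the main cluster, at 22.3 CPM against 11.9 CPM.

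The H1 genes without Hist1h1b summed to 543 CPM against 94.2 CPM, a log2 ratio of 2.53 (2.44 to 2.61), so linker histone mRNA was high in these cells too. Hist1h1e reached 365 CPM against 58.6 CPM, or 6.23-fold (5.79 to 6.71), and Hist1h1c 52.1 CPM against 18.2 CPM, or 2.86-fold (2.35 to 3.45). The H2B genes showed the smallest ratio, with 108 CPM against 33.4 CPM and a log2 ratio of 1.69 (1.497 to 1.88). Hist1h2bc did not pass the limit, at 16.0 CPM against 17.0 CPM or 0.943-fold (0.658 to 1.31), while Hist1h2bj had 16.5 CPM against 2.90 CPM.

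Against the double-high cells, the same families were lower in Hist1h4d-high cells. The log2 ratio was -0.62 (-0.77 to -0.48) for the other H4 genes and -0.89 for H3, -1.05 for H2A, -0.84 for H2B and -0.87 for H1, while 2.42% of all genes were lower and 2.25% higher by 1.5-fold or more, together 4.67%. The chosen cells lay between the Hist1h4d-low and the double-high cells in every family. The rule splits chosen from double-high cells at 700 CPM of Hist1h1b and Hist1h2ae, so lower H1 and H2A levels in the chosen cells were partly given by it.

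Replication-independent histones did not follow. Their sum was 4031 CPM in Hist1h4d-high cells and 4168 CPM in Hist1h4d-low cells. By 1.5-fold, 1 of 9 was higher and 0 lower, beside 1.34% and 11.6% of all genes. The higher gene was H2afx, which encodes the variant phosphorylated at DNA breaks and whose mRNA is known to occur in both stem-loop and polyadenylated forms, at 273 CPM against 137 CPM. Double-high cells had 282 CPM of H2afx. H3f3a, for the H3.3 variant, had 501 CPM against 697 CPM.

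Because the rule admits Hist1h4d-low cells with no H1 or H2A signal, both sets were also limited to cells with 350 to under 700 CPM of Hist1h1b and Hist1h2ae. This choice was made after seeing that most chosen cells lay there. It left 76 Hist1h4d-high cells, with a median sum of 549 CPM and 19188 counts per cell, and 267 Hist1h4d-low cells, with 490 CPM and 27694 counts.

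Over all cells the H3 genes had the largest log2 ratio of the 5 families, and in these matched cells the H4 genes other than Hist1h4d had it, at 221 CPM in Hist1h4d-high cells against 98.6 CPM in Hist1h4d-low cells, a log2 ratio of 1.16 (0.99 to 1.33). Hist1h4h had 87.5 CPM against 27.5 CPM, or 3.19-fold (2.59 to 3.91). The log2 ratio was 0.78 (0.63 to 0.93) for H3, 0.53 (0.42 to 0.63) for H2A, 0.47 (0.24 to 0.69) for H2B and 0.39 (0.29 to 0.49) for H1. By the 1.5-fold limit, 1 of 2 H4, 1 of 2 H3, 5 of 10 H2A, 0 of 2 H2B and 1 of 4 H1 genes were higher and none was lower, where 1.5% of all genes were higher and 7.83% lower, together 9.33%. Hist1h4i was no longer apart, with a 1.09-fold ratio (0.772 to 1.51). The band evens out an H1 and an H2A gene between sets that are split on an H4 gene. A larger ratio of H4 than of H1 and H2A was therefore partly given by the choice of cells and is not a test.

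**Figure D2:**
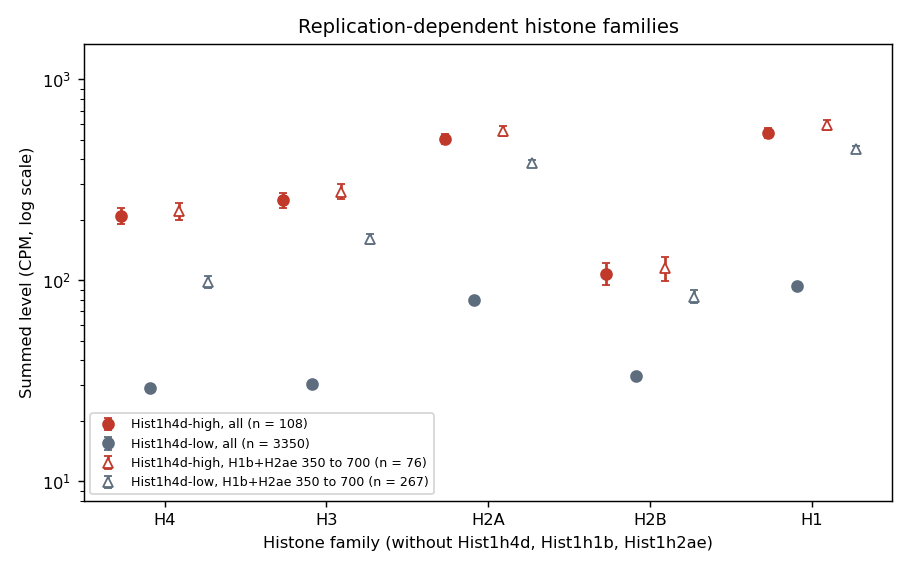
Summed CPM (y axis, log scale) of each histone family (x axis) without the 3 genes of the rule; filled circles are all cells of a set and open triangles the cells with 350 to under 700 CPM of Hist1h1b and Hist1h2ae, red for Hist1h4d-high and grey for Hist1h4d-low cells, with 95% Poisson intervals. The distance between red and grey is large in every family for all cells and, in the matched cells, is largest for H4, at 221 against 98.6 CPM. The band is set on an H1 and an H2A gene and the sets are split on an H4 gene, so this order was partly given.

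The sign of the S phase list depended on which Hist1h4d-low cells were used. Against all of them, S phase genes, which build replication forks and nucleotides, summed to 1413 CPM in Hist1h4d-high cells and 1148 CPM in Hist1h4d-low cells, a log2 ratio of 0.30 (0.25 to 0.35). Of 24 genes, 1 was higher and 1 lower by 1.5-fold, where 1.34% of all genes were higher and 11.6% lower. Thymidine kinase Tk1 stood at 95.3 CPM against 51.5 CPM, and Dtl, a substrate receptor of the ubiquitin ligase that clears licensing factors, at 5.79 CPM against 13.8 CPM from 13 counts.

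The sign turned in the matched cells, where S phase genes summed to 1418 CPM in Hist1h4d-high cells against 1950 CPM in Hist1h4d-low cells, a log2 ratio of -0.46 (-0.52 to -0.40). Of the 24 genes, 11 were lower by 1.5-fold and 0 higher, where 7.83% of all genes were lower. Picked after their values were seen, Slbp, the stem-loop binding protein of histone mRNA, had 28.3 CPM against 57.6 CPM and Pcna, the sliding clamp of DNA polymerase, 95.1 CPM against 145 CPM. Genes of G1 and S entry were lower as well, with 7 of 19 by 1.5-fold and a summed log2 ratio of -0.34 (-0.41 to -0.27). Ccne2, a cyclin E that drives S entry, had 7.06 CPM in Hist1h4d-high cells against 26.1 CPM, a ratio of 0.270 (0.142 to 0.472), and the DNA methylation cofactor Uhrf1, also picked after seeing its values, 42.9 CPM against 96.7 CPM.

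Genes of G2 and M phase were higher in both comparisons. Against all Hist1h4d-low cells they summed to 2633 CPM against 2132 CPM, a log2 ratio of 0.30 (0.27 to 0.34), with 5 of 24 higher and 1 lower by 1.5-fold, beside 1.34% and 11.6% of all genes. Top2a, the topoisomerase that untangles chromosomes, stood at 192 CPM against 77.0 CPM or 2.49-fold (2.26 to 2.74), with a median per cell of 116 CPM (0 to 586) against 0 CPM (0 to 927), and the proliferation marker Mki67 at 169 CPM against 83.1 CPM or 2.04-fold (1.83 to 2.26). The kinesin Kif11 had 36.1 CPM against 19.4 CPM and the kinase Aurka 62.3 CPM against 36.7 CPM. The lower gene was cyclin Ccnb2, at 50.3 CPM against 83.3 CPM. Against double-high cells, the G2 and M genes summed to 2633 CPM in Hist1h4d-high cells and 2639 CPM in double-high cells, and the S phase genes to 1413 CPM and 1496 CPM.

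G2 and M genes of the matched cells summed to 2835 CPM in Hist1h4d-high cells against 2178 CPM in Hist1h4d-low cells, a log2 ratio of 0.38 (0.34 to 0.42), with 8 of 24 higher and 0 lower, beside 1.5% and 7.83% of all genes. Picked after seeing their values, the kinetochore protein Cenpf had 47.3 CPM against 18.8 CPM and the mitotic kinase Plk1 121 CPM against 59.3 CPM. In the same matched cells Top2a, at a log2 ratio of 0.50, was under the 1.5-fold limit, and Mki67, at 0.64, was past it. The sign of this list turned under stricter rules: it was -0.31 with a ceiling of 350 CPM for Hist1h1b and Hist1h2ae, which kept 32 chosen cells, and -0.17 with a Hist1h4d minimum of 400 CPM, which kept 23.

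**Figure D3:**
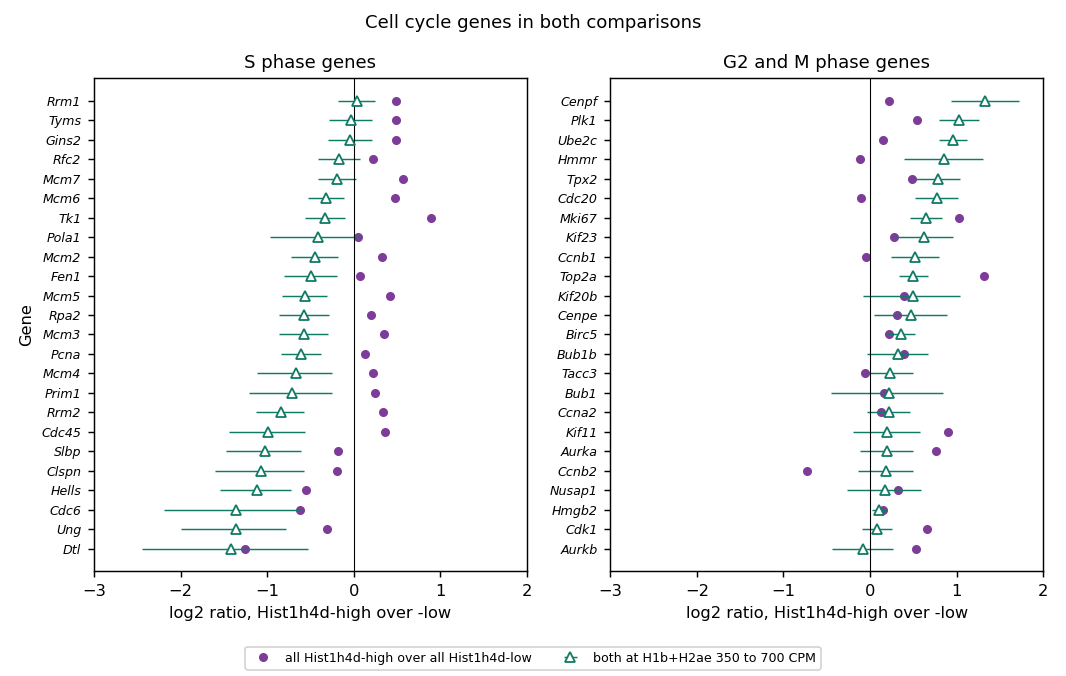
The log2 ratio of Hist1h4d-high over Hist1h4d-low cells (x axis) for each S phase gene (left) and each G2 and M phase gene (right); circles compare all cells, triangles the cells with 350 to under 700 CPM of Hist1h1b and Hist1h2ae, with 95% intervals. In the matched cells the S phase genes lie mostly left of 0 and the G2 and M genes mostly right of it.

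The 108 cells differed among themselves along their H1 and H2A level. The other H4 genes summed to 111 CPM in the 14 cells under 100 CPM of Hist1h1b and Hist1h2ae, 181 CPM in the 18 cells between 100 and 350 CPM and 221 CPM in the 76 cells above. H3 genes went along, at 67.7, 177 and 276 CPM in the same order, and so did Top2a, at 30.8, 177 and 208 CPM. S phase genes peaked in the middle class, at 910, 1709 and 1418 CPM. The lowest class rested on 5 counts of Top2a and 18 counts of other H4 genes. Hist1h4d-low cells in the same 3 classes had 18.8, 51.7 and 98.6 CPM of other H4 genes, so at each H1 level the Hist1h4d-high cells had more.

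The H4 levels varied with depth class. In cells of 5000 to 10000 counts the other H4 genes stood at 284 CPM in 41 Hist1h4d-high cells against 38.1 CPM in 577 Hist1h4d-low cells, and in cells of 10000 to 20000 counts at 329 CPM in 26 cells against 29.3 CPM in 730. In cells of 20000 to 40000 counts they had 150 CPM in 28 cells against 28.1 CPM in 1159, and at 40000 counts or more 180 CPM in 13 cells against 29.0 CPM in 884.

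Over all cells under the ceiling, the other H4 genes, the H3 genes and the H2A genes were higher in each higher class of Hist1h4d. In cells with 0 Hist1h4d counts, above 0 to 50, 50 to 100, 100 to 200, 200 to 300 and at least 300 CPM, the other H4 genes summed to 23.7, 44.4, 83.2, 118, 160 and 308 CPM. H3 genes had 20.1, 60.2, 134, 185, 226 and 300 CPM in the same classes, and H2A genes 54.1, 151, 326, 415, 440 and 645 CPM. H1 and H2B genes rose too, from 67.2 and 30.3 CPM in the first class to 641 and 139 CPM in the last. Between the 100 to 200 and 200 to 300 CPM classes they were flat within counting intervals. H1 had 496 and 495 CPM there, and H2B 92.96 and 92.5 CPM. S phase genes were highest between 50 and 100 CPM of Hist1h4d, at 1608 CPM, and stood at 1480 and 1275 CPM in the highest classes. The classes under 50 CPM are the comparison cells and those between 50 and 200 CPM belong to neither set. In part, this order therefore restates the contrast in steps.

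The 15 genes with the largest ratios outside the lists reached log2 ratios between 0.85 and 1.47. Foxm1, a transcription factor for G2 and M genes, stood at 34.3 CPM in Hist1h4d-high cells against 14.7 CPM in Hist1h4d-low cells, Incenp of the chromosomal passenger complex at 122 CPM against 54.6 CPM and Prc1 of the central spindle at 70.3 CPM against 32.1 CPM. Double-high cells had 23.3 CPM of Foxm1, 112 CPM of Incenp and 62.8 CPM of Prc1. In the matched cells the log2 ratio of Incenp was 0.36, under the 1.5-fold limit. Fbxo5, Ccnf, Pbk, Esco2, Mybl2, Rad54l and Chtf18, with roles in mitosis, cohesion, replication or repair, also stood among the 15 highest, with log2 ratios between 0.85 and 1.09.

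Chac1, which degrades glutathione and is a target of the ATF4 branch of the stress response, had the highest ratio outside the lists, at 34.7 CPM against 11.9 CPM or 2.91-fold (2.28 to 3.66). Its neighbours in that response, Trib3 with 32.5 CPM against 15.9 CPM and Ddit3, which encodes CHOP, with 52.97 CPM against 27.1 CPM, were 2.04-fold and 1.96-fold higher. Among matched cells the 3 genes stood at 38.6, 33.1 and 56.0 CPM in Hist1h4d-high cells against 27.1, 23.1 and 38.5 CPM in Hist1h4d-low cells, under the 1.5-fold limit. Trib3 turned to a log2 ratio of -0.51 with a Hist1h4d minimum of 400 CPM.

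Camk1d, a calcium-dependent kinase gene, and Bc1, a noncoding RNA, were also among the 15 highest. Camk1d stood at 838 CPM against 462 CPM and, in the matched cells, at 791 CPM against 421 CPM, with 1129 CPM against 430 CPM in cells of 20000 to 40000 counts and 400 CPM against 412 CPM in those of 40000 or more. Gm42418, which overlaps the ribosomal RNA repeat, moved with it, at 80521 CPM in Hist1h4d-high cells against 53208 CPM, and the part of that level in the Camk1d difference was not tested. Per cell, Camk1d had a median of 394 CPM against 288 CPM and a 90th percentile of 2297 CPM against 1032 CPM. Its log2 ratio was 0.86 under the rule and 0.17 with a Hist1h4d minimum of 400 CPM.

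Of the 4 nuclear-retained long RNAs tested, 2 were lower, Malat1 and Neat1, and 0 higher, where 11.6% of all genes were lower and 1.34% higher. Malat1 had 16.9 CPM in Hist1h4d-high cells, from 38 counts, against 288 CPM in Hist1h4d-low cells, a ratio of 0.059 (0.042 to 0.081). The median was 0 in both sets, and the 90th percentile was 62.6 CPM against 724 CPM and the highest cell 548 CPM against 26457 CPM, so a tail of Hist1h4d-low cells carried most Malat1. In the matched cells Malat1 had 17.9 CPM against 37.9 CPM, a ratio of 0.473 (0.320 to 0.678). Neat1, a scaffold of paraspeckles, had 2.67 CPM from 6 counts against 23.1 CPM, and Pvt1, the long RNA gene next to Myc, 1.34 CPM from 3 counts against 16.0 CPM, a ratio of 0.083 (0.017 to 0.244). The other 14 of the 15 lowest genes outside the lists, such as Sbf2, Slc31a2, Gnaq and Nfia, had between 7 and 22 counts in Hist1h4d-high cells and log2 ratios between -2.02 and -1.496. Low Malat1, Neat1 and Pvt1 were not particular to the chosen cells. Double-high cells had 13.8, 1.87 and 2.75 CPM of them, and cells between 50 and 200 CPM of Hist1h4d had 54.9, 4.76 and 4.08 CPM.

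**Figure D4:**
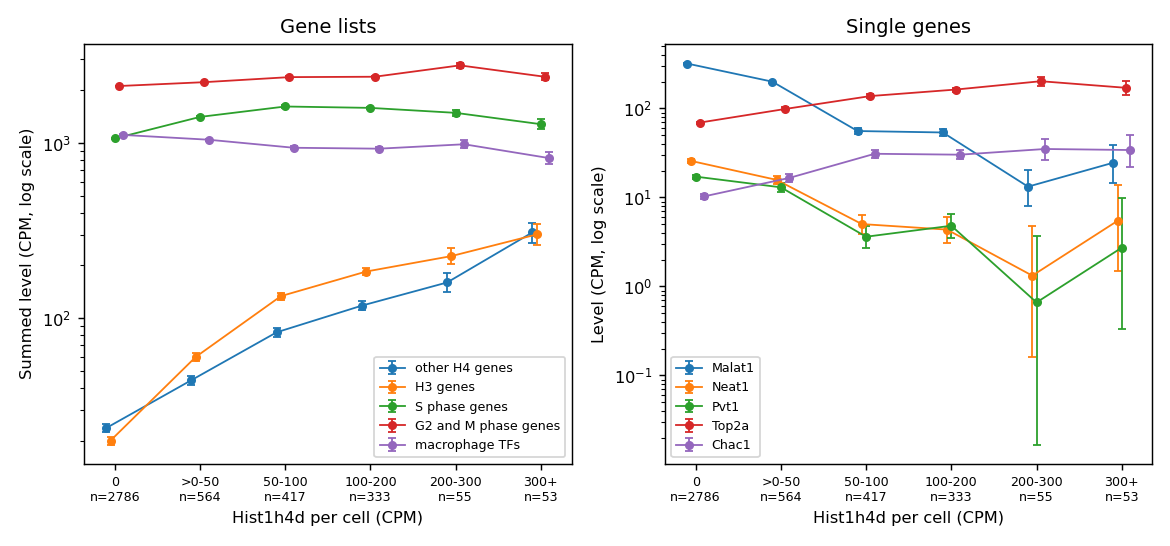
Summed level of gene lists (left) and level of single genes (right), in CPM on log scales, in cells ordered by Hist1h4d (x axis, with the number of cells), all under the 700 CPM ceiling; bars are 95% Poisson intervals. The other H4 genes climb to 308 CPM in the highest class, and Malat1 stands at 319 CPM in cells without Hist1h4d and at 24.5 CPM in the highest class.

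Of 17 factors that make and process histone mRNA, 0 were higher and 2 lower, near the share of all genes (1.34% higher, 11.6% lower). The lower genes were Casp8ap2, a histone locus body protein also known as FLASH, at 9.35 CPM in Hist1h4d-high cells against 15.7 CPM, and the polyadenylation factor Fip1l1, at 25.8 CPM against 39.5 CPM. Npat stood at 8.46 CPM against 7.53 CPM and Slbp at 29.8 CPM against 33.8 CPM, within their counting intervals. Of 19 histone chaperones, 0 were higher and 1 was lower, the H3.3 chaperone component Atrx, with 35.6 CPM against 55.2 CPM. Among matched cells 5 of 17 histone mRNA factors and 1 of 19 chaperones were lower, where 7.83% of all genes were. The 5 factors included Casp8ap2 and Slbp, which was picked after its value was seen.

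Macrophage programs were slightly lower in Hist1h4d-high cells. The median log2 ratio over tested genes was -0.29 for macrophage genes and -0.30 for interferon response genes, beyond the -0.18 of all genes. It was -0.13 for macrophage transcription factors and -0.18 for lysosomal genes. Summed ratios weigh abundant genes more. The summed log2 ratio was -0.15 (-0.17 to -0.14) for macrophage genes, -0.23 (-0.30 to -0.17) for macrophage transcription factors, -0.20 (-0.30 to -0.11) for interferon response genes and -0.19 (-0.21 to -0.17) for lysosomal genes. By 1.5-fold, 0 were higher in any of these lists and 2 of 20, 1 of 13, 2 of 7 and 2 of 20 were lower, against 11.6% of all genes. The integrin gene Itgam had 24.9 CPM against 44.0 CPM, the cathepsin gene Ctss 314 CPM against 480 CPM, the interferon-induced Ifi204 13.8 CPM against 26.9 CPM, and the repressor Zeb2 66.8 CPM against 118 CPM. In the matched cells the interferon list had 0.06 (-0.06 to 0.17), the transcription factors -0.03 (-0.11 to 0.04) and Zeb2 66.8 CPM against 71.2 CPM.

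The lipid-associated list was lower by more than the shift of all genes, with a median log2 ratio over tested genes of -0.40 against -0.18. Its summed log2 ratio was -0.32 (-0.34 to -0.29), and 4 of 13 genes were lower by 1.5-fold, beside 11.6% of all genes. Spp1, which encodes osteopontin, had 315 CPM in Hist1h4d-high cells against 670 CPM in Hist1h4d-low cells, a ratio of 0.470 (0.436 to 0.506), and the lipid carrier Apoe 1227 CPM against 1892 CPM. The tetraspanin gene Cd9 had 93.9 CPM against 147 CPM and the fatty acid receptor gene Cd36 22.7 CPM against 35.4 CPM. In the matched cells the list had a log2 ratio of -0.17 (-0.19 to -0.14) and 1 of 13 was lower, beside 7.83% of all genes, Spp1 standing at 338 CPM against 512 CPM.

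Myc and its target genes did not pass the limit in either direction, with 0 of 23 higher and 0 of 23 lower, beside 1.34% and 11.6% of all genes, and a summed log2 ratio of -0.10 (-0.12 to -0.08). Myc itself stood at 37.4 CPM in both sets. Of the CDK inhibitor and p53 response genes, 0 of 8 were higher and 1 was lower, Mdm2, the ligase that degrades p53, at 12.5 CPM against 20.5 CPM. None of the 9 early response genes passed the limit, and of the 5 monocyte and neutrophil genes Ly6c2, a surface marker of monocytes, had 19.6 CPM against 35.7 CPM and the chemokine receptor gene Ccr2 12.0 CPM against 21.1 CPM. Of the 5 transcripts listed for their tie to ribosomal RNA signal, Gm42418 and Lars2 were higher, Lars2 at 703 CPM against 468 CPM. Gm26917 was lower, at 19.1 CPM against 56.6 CPM.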

How the data were processed

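The authors deposited raw counts per gene and barcode as 1 sparse matrix, written by PISA v0.12 per the file headers, with other files of gene symbols and barcode names; the submitters' processing notes name Cell Ranger and mm10 with no role. Whether the deposited counts are molecules or reads, which annotation was used and how cells were called is not given in the sources used here. Barcodes under 500 genes or above 15% mitochondrial counts were left out, which kept 6751 of 6837, and sets were formed at 5000 counts or more. No doublet caller was run, and no cell type lacking histone mRNA was available to set the level of free RNA.

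Counts were summed over the cells of a set and divided by the set's total (CPM). Log2 ratios of single genes used CPM + 1, and genes with at least 10 CPM over all kept cells were counted at 1.5-fold; ratios and sums carry no pseudocount. Intervals are exact at 95% (Poisson for a level, Clopper-Pearson for a share, conditional binomial for a ratio). As the matrix is 1 sample, no test was made. Code was tested on simulated data. Named genes were all listed histones, the 4 members with the largest absolute ratio in each other list, and the 15 highest and 15 lowest genes outside the lists. Members and lists were chosen with earlier results of these data known. Sequences are from RefSeq (GRCm38.p6), and positions of genes from GENCODE M21, which held 19659 of 20034 symbols. Python 3.11.15 with numpy 2.4.6, scipy 1.17.1, pandas 2.3.3 and matplotlib 3.10.9 was used. The alternatives were stricter limits of the rule, other depths, denominators, weights, filters and pseudocounts, and cells matched on Hist1h1b and Hist1h2ae.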

Additional observations from a re-analysis of the deposited data

How the results depend on the processing

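Membership rested on 2 to 23 Hist1h4d counts per cell. The 89 higher and 770 lower genes became 294 and 2783 with a Hist1h4d minimum of 400 CPM, 358 and 2048 with a ceiling of 350 CPM, 142 and 483 with a denominator without histone, ribosomal protein, mitochondrial and ribosomal RNA locus genes, 214 and 1509 with each cell thinned to 5000 counts, 50 and 216 with a pseudocount of 10 CPM, 470 and 2429 with no filter, 21 and 82 with a filter of 50 CPM, 28 and 135 at 2-fold, and 189 and 379 after centring on the median of all genes (chosen after seeing the data). The cause was not tested.

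The log2 ratio of the other H4 genes (2.84) stayed above 0 in each alternative, at 4.07 with a minimum of 400 CPM, 3.02 as a mean over cells, 3.09 thinned, 2.52 with cells of 20000 counts or more and 1.16 in the matched cells. S phase genes (0.30) had 0.16 at the 400 CPM minimum, 0.37 at the 350 CPM ceiling, 0.42 with the other denominator and -0.46 in the matched cells. G2 and M genes (0.30) had -0.17 at the 400 CPM minimum, -0.31 at the 350 CPM ceiling, 0.36 and 0.41 with cells of 10000 and 20000 counts or more, 0.24 as a mean over cells, 0.43 with the other denominator, 0.22 thinned, 0.40 weighted to the depth of the chosen cells, 0.34 without cells over 60000 counts and 0.38 in the matched cells. Interferon genes (-0.20) had -0.54 at the 400 CPM minimum, -0.0794 with the 350 CPM ceiling, -0.0793 with the other denominator, -0.30 thinned, -0.49 without cells over 60000 counts and 0.0551 in the matched cells. Macrophage transcription factors (-0.23) had -0.48 at the 400 CPM minimum, -0.11 at the 350 CPM ceiling, -0.11 with the other denominator and -0.0336 in the matched cells. Trib3 turned to -0.51 at the 400 CPM minimum. No paired analysis was possible because the matrix is 1 sample with no map of cells to libraries.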
